A study of Mus musculus with 4 samples.

Results

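The VEGF ligands, receptors and neuropilins were followed as a group of 8 named genes, matched by gene symbol in both deposited tables: the ligands Vegfa, Vegfb and Vegfc, the receptors Kdr, Flt1 and Flt4, and the co-receptors Nrp1 and Nrp2. The 7 members described here were listed in both tables, out of 14100 genes in both; Vegfa is not analysed here. Total RNA came from endothelial cells of the brain of C57BL/6 mice at embryonic day 18. The genotype labelled STINGECKO (STING ECKO 1 and 2 here) and wild type (WT 3 and WT 5) had 2 libraries each, although the design text speaks of triplicates. STING is an adaptor of innate sensing of cytosolic DNA; the labels do not spell out ECKO, and the title concerns STING signalling in endothelial cells. Not stated in the sources used here are the allele, any Cre driver, how cells were isolated, and whether a library is 1 embryo or a pool. The question was how these genes stand in STING ECKO beside wild type.

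VEGF ligands are secreted growth factors that bind tyrosine kinase receptors on endothelial cells. In the developing brain, VEGF made by neural cells draws sprouting vessels inward and keeps them alive. Kdr carries most of the mitogenic signal, Flt1 binds the same ligand tightly and acts largely as a trap, and Flt4 is the receptor of VEGF-C, best known from lymphatic vessels and also found on sprouting tips. Neuropilins have no kinase of their own and present VEGF to the receptors, while also serving as receptors of class 3 semaphorins.

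Libraries held 18610298 to 22169261 listed reads. All 10 endothelial markers had reads in each library, with a summed level of 15987 and 18224 CPM (reads of a gene scaled to library size) for STING ECKO 1 and 2 against 16487 and 15984 for WT 3 and 5. STING ECKO 2 stood apart, with 0 reads for 13.2% of genes against 2.39% to 5.25% in the others. STING ECKO 1 had 3623 reads of the Y-linked gene Ddx3y and 0 of Xist, whereas Xist, expressed from the inactive X chromosome, had 876 to 3374 reads in the others. The part of sex in the results was not tested. Tmem173, which encodes STING, did not separate the labels: it was at 3.65 and 8.32 CPM for STING ECKO against 4.48 and 6.27 for WT. Which part of the gene was targeted is unknown here, so reads outside it would check nothing, and directions below rest on the labels. All CPM values use library sizes scaled by the trimmed mean of M-values (TMM), and in such bulk samples fewer cells of a type and less RNA per cell cannot be told apart.

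None of the 7 members passed the genotype test. By edgeR's quasi-likelihood method and Benjamini-Hochberg adjustment, 0 of 7 had an adjusted p under 0.05, as did 0.0% of 13365 genes tested. At an unadjusted p under 0.05 it had 0 of 7 members and 4.8% of all genes, and DESeq2 called 0 of 7 and 0.651% of all genes. The genotypes did not overlap in 3 of 7 members, against 34.4% of all genes. Kdr and Flt1 were higher in both STING ECKO libraries than in both WT libraries, a pattern of 15.4% of all genes, and Vegfb was lower in both, a pattern of 19.0%. The median log2 fold change of the 7 was -0.02, and that of all genes -0.03. With 2 libraries a genotype, an exact permutation test of 1 gene cannot go below p = 0.333 (two-sided), so the tests rest on the spread shared across genes.

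**Figure D1:**
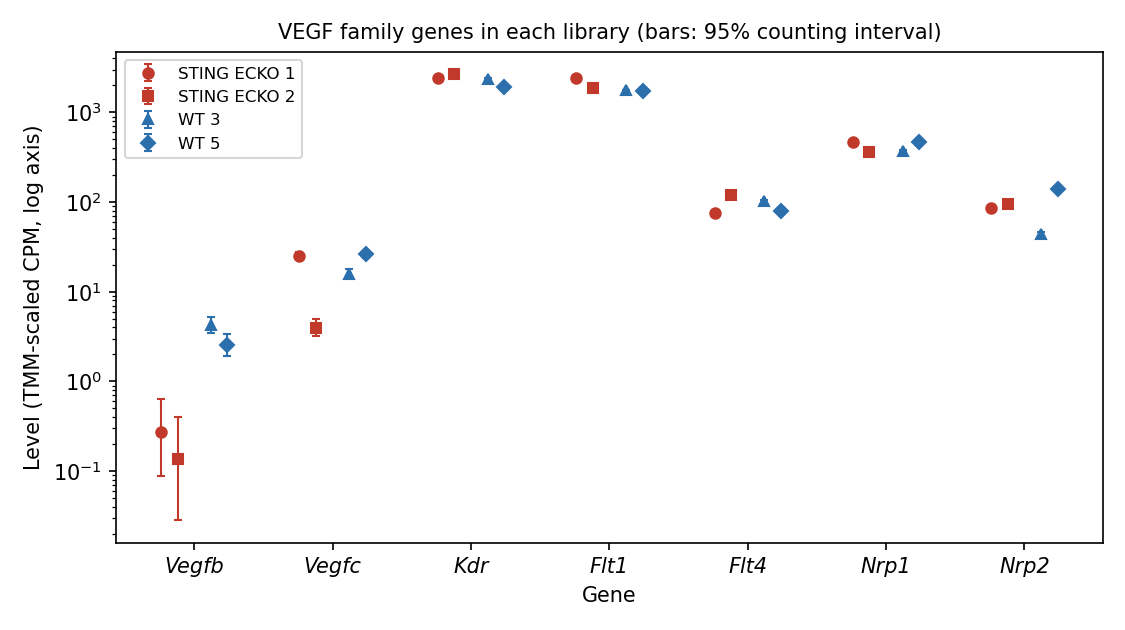
Level of each of the 7 genes (TMM-scaled CPM, log axis) in each library, red for STING ECKO and blue for WT, with 95% Poisson counting intervals. Kdr and Flt1 lie between 1722 and 2674 CPM in each library, while Vegfb lies at 4.25 CPM or below.

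The sequences before the start sites of Kdr, Flt1 and Vegfb are shown because these are the 3 members whose genotypes did not overlap. Each line gives the 250 bases upstream of the RefSeq start (GRCm38.p6), 5′ to 3′ on the strand of the gene, with capitals marking GGAA or its reverse complement TTCC, the core that ETS factors of endothelial cells bind. The lines are Kdr at chr5:75978456-75978705 on the minus strand, Flt1 at chr5:147726012-147726261 on the minus strand and Vegfb at chr19:6987652-6987901 on the minus strand.
Kdr: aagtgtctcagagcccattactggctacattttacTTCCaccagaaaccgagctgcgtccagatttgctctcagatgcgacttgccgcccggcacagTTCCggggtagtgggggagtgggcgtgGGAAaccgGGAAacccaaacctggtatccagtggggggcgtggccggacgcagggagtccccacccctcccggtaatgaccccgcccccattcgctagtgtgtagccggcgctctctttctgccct
Flt1: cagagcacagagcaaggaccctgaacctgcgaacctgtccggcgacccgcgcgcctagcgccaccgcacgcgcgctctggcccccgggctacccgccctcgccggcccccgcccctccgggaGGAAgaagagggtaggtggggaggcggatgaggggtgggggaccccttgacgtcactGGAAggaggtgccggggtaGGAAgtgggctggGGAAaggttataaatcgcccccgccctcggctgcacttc
Vegfb: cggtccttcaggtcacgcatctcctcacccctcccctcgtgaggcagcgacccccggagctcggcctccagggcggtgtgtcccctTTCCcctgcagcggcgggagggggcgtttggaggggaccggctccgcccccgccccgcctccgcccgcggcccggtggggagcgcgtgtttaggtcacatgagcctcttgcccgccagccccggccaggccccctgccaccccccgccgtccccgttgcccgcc

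The ETS core was found 4 times in the Kdr window, 4 times in the Flt1 window and 1 time in that of Vegfb, counted on both strands. Over 32841 promoter windows of the same length in the RefSeq table the median was 3, and 93.5% held at least 1, so its presence is common. The GC box GGGCGG, on either strand, was found 2, 3 and 4 times in the windows of Kdr, Flt1 and Vegfb, and 32.7% of all windows held it. The TATA box TATAAA was found in the Flt1 window and in neither of the other two, and 12.4% of all windows held it on either strand. The hypoxia response core ACGTG was found in none of the 3 windows, against 16.6% of all windows. GC content was 61.6% for Kdr, 70.4% for Flt1 and 76.4% for Vegfb, with a median of 52.4% over all windows. All 7 members matched an entry of the table. Each motif was searched without regard to the others, so matches of different motifs may share bases, and a match describes the letters only.

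Among the ligands, Vegfb, a ligand of Flt1 linked to fatty acid handling by endothelium (ENSMUSG00000024962, chromosome 19, 6982473 to 6987651, minus strand, GRCm38), had 5 and 3 reads for STING ECKO 1 and 2 against 92 and 53 for WT 3 and 5. These were 0.273 and 0.137 CPM for STING ECKO against 4.25 and 2.56 CPM for WT. Both WT libraries lay above both STING ECKO libraries, and it was the least abundant member in every library. Summed over libraries, WT exceeded STING ECKO by a factor of 17.2 (exact 95% interval from counts, 8.50 to 40.6, for counting error only).

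The log2 fold change of Vegfb was -4.02 (SE 1.64, 95% interval -8.21 to 0.17, adjusted p = 1.00, edgeR quasi-likelihood test), so the difference did not pass. Vegfb passed the filter on low counts only through the WT libraries, where it was high, so its entry into the test was tied to that direction. Other genes of this depth had the pattern too. Of 568 genes with 40 to 120 reads in both WT libraries, 65 (11.4%) had at most 5 reads in both STING ECKO libraries, whereas of 351 genes with 40 to 120 reads in both STING ECKO libraries 15 (4.27%) had at most 5 in both WT libraries. Counts of at most 5 were commoner among the 568 genes in STING ECKO 2 (34.0%) than in STING ECKO 1. The authors' deposited tables marked Vegfb as lower in both, with fold changes of 0.0627 and 0.0526; the authors' deposited tables marked 19.4% and 35.1% of their genes as lower, each from 1 library against 1.

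The summed neuron and astrocyte markers were lower in the same libraries as Vegfb, and the sum of oligodendrocyte lineage markers overlapped. The 10 neuron markers summed to 74.1 and 42.2 CPM for STING ECKO against 160 and 111 for WT, with Syn1 and Snap25 at 0 reads in STING ECKO 1 and Syn1, Gap43, Neurod1 and Neurod6 at 0 in STING ECKO 2. The 10 astrocyte and radial glia markers summed to 330 and 220 CPM against 408 and 340, and 1 and 6 of the 10 were at 0 reads for STING ECKO 1 and 2, against 0 and 1 for WT 3 and 5. Single markers did not all follow the sums: the neuron marker Rbfox3 was at 6.43 and 14.5 CPM for STING ECKO against 1.20 and 8.92 for WT. The neuron markers Stmn2, Map2, Snap25 and Neurod1 overlapped too, and Snap25 had 34 reads in STING ECKO 2 against 7 in WT 5. Tubb3, Syn1, Gap43, Dcx and Neurod6 were lower in both STING ECKO libraries. Gja1 made up most of the astrocyte and radial glia sum, at 263 and 210 CPM against 277 and 249, and it overlapped. Aldh1l1, Fabp7, Gfap and Hes5 also overlapped, whereas Aqp4, Fgfr3, Slc1a3, Slc1a2 and Acsbg1 were lower in both STING ECKO libraries. The 7 oligodendrocyte lineage markers analysed, of 8, summed to 28.7 and 1.46 CPM against 29.8 and 16.5, with 1 and 5 at 0 reads for STING ECKO 1 and 2 against 1 and 3 for WT 3 and 5. The part of these cells in the Vegfb values was not tested.

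Vegfc, the main ligand of Flt4 (ENSMUSG00000031520, chromosome 8, 54077606 to 54187096, plus strand), was at 25.2 and 3.98 CPM for STING ECKO 1 and 2 against 15.95 and 26.1 for WT 3 and 5, from 463, 87, 345 and 542 reads. STING ECKO 2 alone was low, and STING ECKO 1 lay between the WT libraries, so the genotypes overlapped. The STING ECKO libraries differed by 6.34-fold from each other, more than the WT libraries (1.64-fold). Its log2 fold change was -0.53 (SE 1.09, 95% interval -3.30 to 2.25, adjusted p = 1.00 by the edgeR quasi-likelihood test), and leaving out STING ECKO 2 gave 0.27, leaving out STING ECKO 1 gave -2.40. A spread of this size was not unusual for its level: the highest library was 6.57 times the lowest, and over 6230 genes with a mean of 5 to 50 CPM the median was 3.47 and the upper quartile 11.6. The authors' deposited table marked Vegfc as lower between STING ECKO 2 and WT 5 (fold change 0.149), where it marked 35.1% of genes as lower, and did not mark it between STING ECKO 1 and WT 3 (1.55).

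Outside the 8 genes, the ligand Pgf, which binds Flt1 (ENSMUSG00000004791, chromosome 12, 85166635 to 85177790, minus strand), was at 41.3 and 23.9 CPM for STING ECKO against 35.8 and 8.73 for WT. WT 5 was low and the genotypes overlapped. Its log2 fold change of 0.55 (95% interval -1.66 to 2.76) did not pass, and was -0.13 without WT 5. Pgf and Vegfc had their low values in different libraries. The authors' deposited table marked Pgf as higher between STING ECKO 2 and WT 5 (fold change 2.68), where it marked 17.0% of genes as higher, and not between STING ECKO 1 and WT 3 (1.13).

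Among the receptors, Kdr (ENSMUSG00000062960, chromosome 5, 75932827 to 75978458, minus strand) was at 2433 and 2674 CPM for STING ECKO 1 and 2 against 2375 and 1944 CPM for WT 3 and 5, from 40303 to 58490 reads. Both STING ECKO libraries were above both WT libraries, but STING ECKO 1 exceeded WT 3 by a factor of only 1.02, and the difference lay mainly in WT 5. The means were 2554 ± 171 and 2159 ± 305 CPM (SD, n = 2 each). The log2 fold change was 0.24 (SE 0.17, 95% interval -0.20 to 0.68, adjusted p = 1.00, edgeR quasi-likelihood test). On a linear scale that interval runs from 0.870 to 1.61.

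Flt1 (ENSMUSG00000029648, chromosome 5, 147561604 to 147726011, minus strand) was at 2447 and 1866 CPM for STING ECKO 1 and 2 against 1782 and 1722 CPM for WT 3 and 5. STING ECKO 1 stood high, and the other 3 libraries lay within 1722 to 1866 CPM. The means were 2156 ± 411 and 1752 ± 42.2 CPM (SD, n = 2 each), and the log2 fold change was 0.30 (SE 0.19, 95% interval -0.19 to 0.78, adjusted p = 1.00, edgeR quasi-likelihood test). Without STING ECKO 1 it was 0.09, and without STING ECKO 2 it was 0.49 (adjusted p = 1.00 by the edgeR quasi-likelihood test; over its alternatives the adjusted p ranged from 0.770 to 1.00). Flt1 makes a full receptor and a shorter secreted trap from the same gene. The annotation gives 6 transcripts of it, 2 of them protein coding, and counts over the whole gene do not separate them.

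The higher levels of Kdr and Flt1 came from different libraries. For Kdr the wide gap within a deposited table was between STING ECKO 2 and WT 5 (ratio 1.38, against 1.02 between STING ECKO 1 and WT 3), while for Flt1 it was between STING ECKO 1 and WT 3 (1.37, against 1.08). The authors' deposited tables, which marked 21.5% and 17.0% of their genes as higher, marked neither gene, with fold changes of 1.00 and 1.35 for Kdr and 1.34 and 1.06 for Flt1. Across the 4 libraries the highest level was 1.38 times the lowest for Kdr and 1.42 times for Flt1, close to the median of 1.35 over 271 genes with a mean of 500 to 5000 CPM. As a share of the endothelial marker sum, Kdr had 15.2% and 14.7% for STING ECKO against 14.4% and 12.2% for WT, so the genotypes still did not overlap. Flt1 on that scale was at 15.3% and 10.2% against 10.8% and 10.8%, and the genotypes overlapped. Cldn5 made up most of the endothelial marker sum, at 10487 and 12536 CPM for STING ECKO against 10853 and 10529 for WT. Shares on that scale therefore depend largely on this 1 gene, which was highest in STING ECKO 2.

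The summed pericyte and fibroblast markers were also higher in both STING ECKO libraries, though not each marker. All 10 pericyte and smooth muscle markers were listed, and they summed to 9948 and 10242 CPM for STING ECKO against 8066 and 7445 for WT, with Acta2 at 0 reads in both STING ECKO libraries, Tagln in these and WT 5, and Myh11 in all but STING ECKO 1. Rgs5 made up most of that sum (6849 and 7225 CPM against 5591 and 4876), whereas Cspg4 was lower in both STING ECKO libraries (83.8 and 152 against 155 and 181). Pdgfrb, at 366 and 263 CPM for STING ECKO against 258 and 274 for WT, overlapped, as did Abcc9 and Des. The 6 fibroblast markers summed to 277 and 286 CPM against 234 and 186. Dcn was at 1.96 and 0 CPM against 7.12 and 0.386. Lum was at 0 reads in STING ECKO 1 and WT 3, Dcn in STING ECKO 2 and Pdgfra in WT 3. Their part in the levels of Kdr and Flt1 was not tested.

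Flt4 (ENSMUSG00000020357, chromosome 11, 49609263 to 49652739, plus strand) was at 75.3 and 119 CPM for STING ECKO 1 and 2 against 102 and 80.6 CPM for WT 3 and 5. The lowest and the highest library were both STING ECKO. The log2 fold change was 0.09 (SE 0.36, 95% interval -0.83 to 1.01, adjusted p = 1.00, edgeR quasi-likelihood test), and it turned to -0.27 without STING ECKO 2 and -0.06 without WT 5. Flt4 also marks lymphatic endothelium, and 3 of 5 lymphatic markers were analysed, with a sum of 26.6 and 19.1 CPM for STING ECKO against 23.9 and 216 CPM for WT; Reln was at 0 reads in STING ECKO 1 and WT 5, and Pdpn in STING ECKO 2 and WT 3. Lyve1, which macrophages of brain borders also carry, was at 26.2, 1.05, 22.7 and 215 CPM in the order STING ECKO 1, STING ECKO 2, WT 3, WT 5, and Pdpn had at most 8 reads in any library. The part of lymphatic cells in the Flt4 level was not tested.

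**Figure D2:**
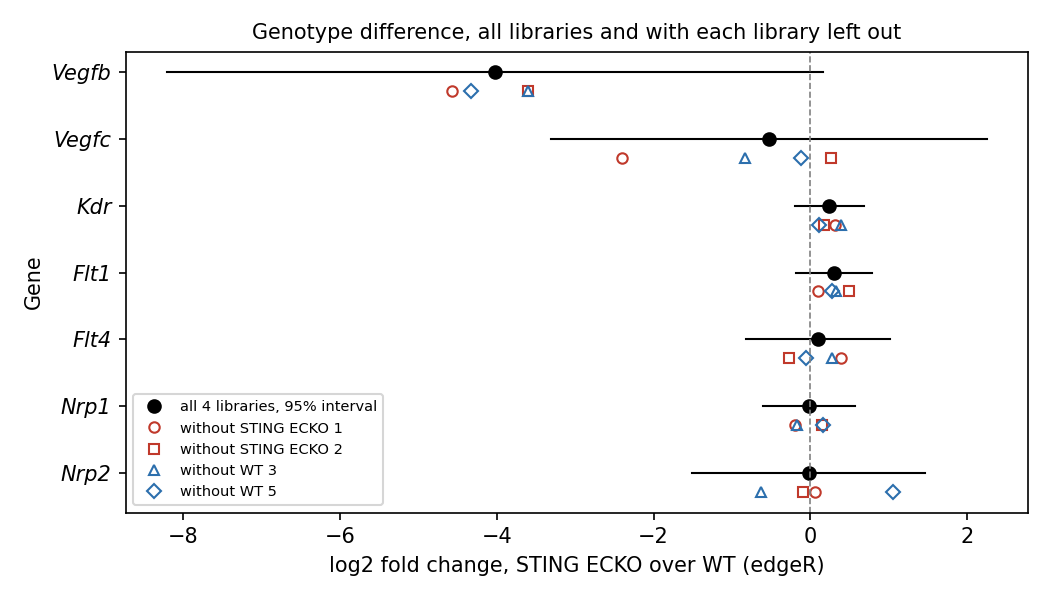
Log2 fold change of STING ECKO over WT (edgeR) for the 7 genes: black points and lines are the value and 95% interval with all 4 libraries, and open symbols are the value without 1 library. Each interval includes 0, and the values for Vegfc range from -2.40 to 0.27 by the library left out.

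Among the co-receptors, Nrp1, the neuropilin of arteries and sprouting tips that binds VEGF-A (ENSMUSG00000025810, chromosome 8, 128358604 to 128503363, plus strand), was at 463 and 366 CPM for STING ECKO 1 and 2 against 371 and 469 for WT 3 and 5. One library of each genotype was high and the other low, so the genotypes overlapped almost completely. The means were 414 ± 68.7 and 420 ± 69.0 CPM (SD, n = 2 each), and the log2 fold change was -0.02 (SE 0.23, 95% interval -0.61 to 0.57, adjusted p = 1.00, edgeR quasi-likelihood test). On a linear scale the interval runs from 0.656 to 1.48, which leaves room for a difference in either direction. It is not a limit of detection, since none of the 13365 genes tested passed. The sign was the opposite when STING ECKO 2 (0.15) or WT 5 (0.17) was left out.

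Nrp2, the neuropilin of veins and lymphatic vessels that binds VEGF-C (ENSMUSG00000025969, chromosome 1, 62703285 to 62818695, plus strand), was at 85.6 and 95.1 CPM for STING ECKO 1 and 2 against 43.8 and 140 for WT 3 and 5. Both STING ECKO libraries lay between the WT libraries, which differed by 3.19-fold. The log2 fold change was -0.02 (SE 0.58, 95% interval -1.51 to 1.46, adjusted p = 1.00, edgeR quasi-likelihood test). It was 1.05 without WT 5 and -0.63 without WT 3. The spread was wide for the level: over 3788 genes with a mean of 50 to 500 CPM the median of highest over lowest was 1.76, with quartiles of 1.45 and 2.29, whereas Nrp1 had 1.28 and Flt4 1.58.

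Nrp2 is also carried by macrophages, and the summed macrophage markers were high in the library with the most Nrp2. The 10 microglia and macrophage markers summed to 1384 CPM in WT 5 and to 535 CPM in WT 3, beside 488 and 348 CPM for STING ECKO 1 and 2, and 1 of them, Cd163, was at 0 reads in STING ECKO 2. Within the list, Mrc1 was at 258 CPM in WT 5 and 21.0 to 24.3 CPM in the others, whereas the microglial receptor P2ry12 was lowest in WT 5, at 6.66 CPM against 23.5 to 47.9 CPM. Cx3cr1 was at 91.7 CPM in WT 5 and 109 CPM in WT 3. Outside WT 5 the order was reversed: WT 3 had a higher marker sum than both STING ECKO libraries but less Nrp2. There Nrp2 was at 43.8 CPM, against 85.6 and 95.1 CPM for STING ECKO 1 and 2. The part of these cells in the Nrp2 level was not tested.

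Levels per exon length set the genes in order. Kdr had the highest level in each library, with 283 ± 18.9 CPM per kilobase of exon for STING ECKO against 239 ± 33.7 for WT (SD, n = 2 each), followed by Flt1 at 160 ± 30.5 and 130 ± 3.12. Nrp1 was the third, at 42.3 ± 7.02 and 42.9 ± 7.06 CPM per kilobase. Below it, Flt4 (9.15 to 14.4 over the 4 libraries), Nrp2 (3.70 to 11.8) and Vegfc (1.62 to 10.7) had ranges that overlapped, so these neighbours did not differ beyond their spread. Vegfb was last in every library, from 0.0855 to 2.65 CPM per kilobase. The first 3 places and the last were the same in all 4 libraries. With the longest transcript as the length, 3 genes changed place in some library, all of them among Flt4, Nrp2 and Vegfc.

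**Figure D3:**
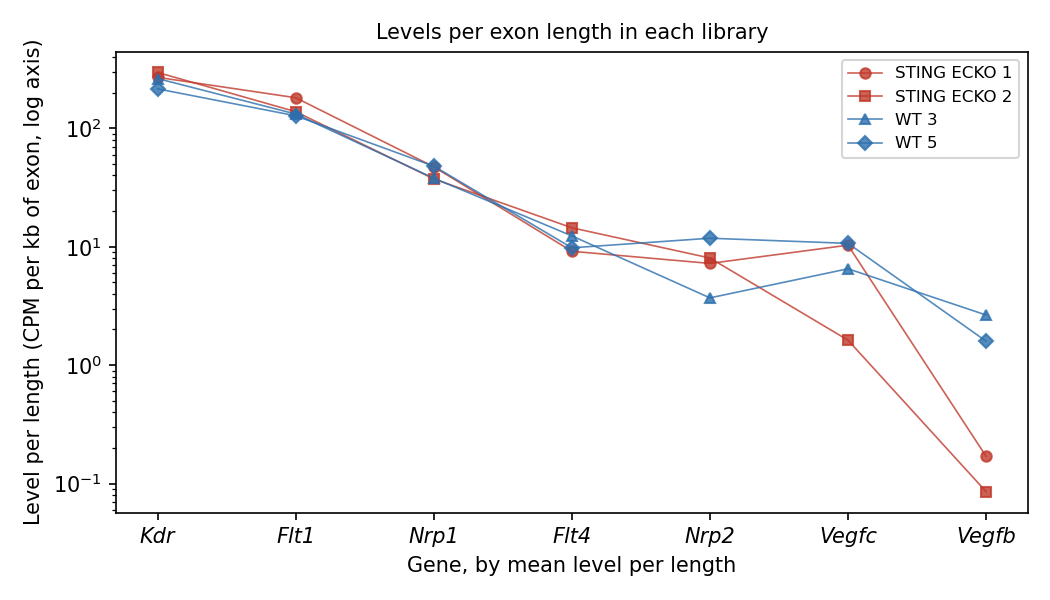
Level of the 7 genes per kilobase of exon (CPM per kb, log axis), ordered by mean, with 1 line per library. The lines run together for Kdr, Flt1 and Nrp1, cross between Flt4, Nrp2 and Vegfc, and separate the genotypes at Vegfb.

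Among the 3 receptors, Kdr made up 58.6% and 66.0% of the summed level per kilobase for STING ECKO 1 and 2, against 64.6% and 61.1% for WT 3 and 5. Flt1, the trap receptor, made up 39.4%, 30.8%, 32.4% and 36.2%, and Flt4 from 1.99% to 3.22%. These shares depend on the length used. In STING ECKO 1, Kdr and Flt1 were at 269 and 181 CPM per kilobase of exon. With the longest transcript as the length they were at 411 and 355, which lies closer together. Ratios of reads within a library need no scaling between libraries. For each Flt1 read, STING ECKO 1 had 0.994 Kdr reads (exact binomial 95% interval 0.981 to 1.01) and STING ECKO 2 had 1.43 (1.42 to 1.45). WT 3 had 1.33 (1.32 to 1.35) and WT 5 had 1.13 (1.11 to 1.14). The STING ECKO libraries held both the lowest and the highest ratio, so the genotypes overlapped. The intervals cover counting error only and leave out the spread between samples.

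The balance of the neuropilins varied more. For each Nrp2 read, STING ECKO 1 had 5.41 Nrp1 reads (exact binomial 95% interval 5.12 to 5.71) and STING ECKO 2 had 3.85 (3.67 to 4.04). WT 3 had 8.47 (7.92 to 9.07) and WT 5 had 3.36 (3.22 to 3.50). Here the WT libraries held both the lowest and the highest ratio. Vegfc reads per Flt4 read were 0.335 and 0.0334 for STING ECKO against 0.157 and 0.324 for WT, so the ligand was low against its receptor in STING ECKO 2 alone.

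**Figure D4:**
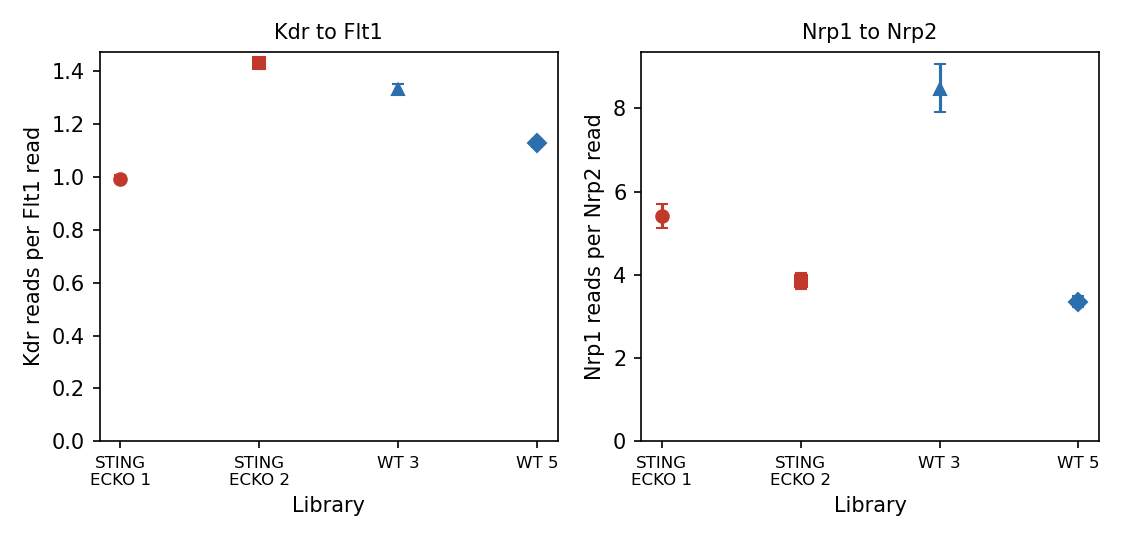
Kdr reads per Flt1 read (left) and Nrp1 reads per Nrp2 read (right) in each library, with exact binomial 95% intervals and axes from 0. STING ECKO holds the lowest (0.994) and highest (1.43) ratio on the left, and WT the lowest (3.36) and highest (8.47) on the right.

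Genes whose pattern over the 4 libraries was most like that of a member were sought among 4064 genes with a mean of at least 50 CPM, as the smallest root mean square difference of centred log2 CPM. Luzp1 was nearest to Kdr (0.015), Shkbp1 to Flt1 (0.025), Sft2d1 to Flt4 (0.016) and Pigu to Nrp1 (0.014). Close matches were many, as 145 genes lay within 0.1 of Kdr, 70 of Flt1, 69 of Flt4 and 111 of Nrp1. Vegfc had 1 gene within 0.1, Loxl3 (0.072), a lysyl oxidase at 108, 19.2, 69.3 and 102 CPM in the order STING ECKO 1, STING ECKO 2, WT 3, WT 5. Nrp2 had none, with Dnajc11 nearest (0.14), nor had Vegfb, with Atad1 nearest (0.51). The members with few or no matches had the widest spread of centred log2 CPM, with SD 1.44 for Vegfb, 1.20 for Vegfc and 0.69 for Nrp2. Kdr, Nrp1, Flt1 and Flt4 had 0.19 to 0.30. Vegfb and Vegfc lay below 50 CPM, so genes of like level were not searched. The counts within 0.1 therefore do not measure how rare a pattern is. With 4 libraries these are descriptions only.

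Of the wider VEGF pathway, 106 genes in 7 lists were followed, 94 of them were tested, and 0 of 94 passed in either direction (edgeR quasi-likelihood, Benjamini-Hochberg adjusted), where 0.0% of all genes did. At an unadjusted p under 0.05 there were 4 of 94 pathway genes and 4.8% of all genes, and DESeq2 called none of the 94 and 0.651% of all genes. The fold changes were above 0 in 43 of 94 and in 48.2% of all genes, the share to set beside the counts of each list below. The median was -0.05, beside -0.03 for all genes. The log2 fold changes of genes below are values that did not pass, with an adjusted p from 0.977 to 1.00 by that test.

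Signal transducers below the receptors had 0 of 25 tested genes past the test, with 16 above 0 and a median log2 fold change of 0.13. Rac1, a GTPase that drives endothelial migration, was at 351 and 259 CPM for STING ECKO against 125 and 165 for WT, a log2 fold change of 1.07 (SE 0.28). Ptk2, the focal adhesion kinase, was at 318 and 379 CPM against 303 and 271. Both genes, named for their small p, were higher in both STING ECKO libraries than in both WT libraries, as were 7 of the 25 tested genes of the list and 15.4% of all genes, while 2 of the 25 and 19.0% of all genes were lower in both.

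Modulators of receptor activity and traffic had 0 of 20 genes past the test, with 14 below 0 and a median of -0.14. Dab2, a clathrin adaptor that takes VEGF receptors into the cell, was at 174 and 109 CPM for STING ECKO against 242 and 277 for WT, a log2 fold change of -0.88 (SE 0.30). Macrophages also express Dab2, and the sum of microglia and macrophage markers was 488 and 348 CPM against 535 and 1384. Within that list Cx3cr1, C1qb, Pf4 and Cd163 were lower in both STING ECKO libraries, whereas C1qa, Csf1r, Mrc1, P2ry12, Aif1 and Tyrobp overlapped. The part of these cells in the Dab2 level was not tested. Hspg2, the basement membrane proteoglycan perlecan that binds VEGF, was at 291 and 414 CPM against 233 and 158, a log2 fold change of 0.85 (SE 0.31).

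Regulators of hypoxia-inducible factors, which control VEGF-A transcription, had 0 of 9 genes past the test, with 4 above 0 and a median of -0.13. Arnt, the constant partner of these factors, was at 97.1 and 104 CPM for STING ECKO 1 and 2 against 40.7 and 39.0 for WT 3 and 5. The libraries of each genotype lay close together. The log2 fold change of Arnt was 1.34 (SE 0.33, adjusted p = 0.977, edgeR quasi-likelihood test), and it ranged from 1.29 to 1.39 when 1 library was left out. Arnt was named for its small p in these same libraries, so the close values and narrow range follow in part from that choice. Of the 9 genes, 1 was higher and 2 were lower in both STING ECKO libraries, beside 15.4% and 19.0% of all genes. Hif1an, an oxygen-dependent inhibitor of the factors, was at 27.6 and 8.92 CPM against 66.2 and 33.1, a log2 fold change of -1.44 (SE 0.78).

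Hypoxia-responsive genes had 0 of 13 tested genes past the test, with 9 below 0 and a median of -0.11. Ldha, a lactate dehydrogenase subunit, was at 1598 and 1250 CPM for STING ECKO against 1995 and 1828 for WT. Slc2a1, the glucose transporter of the barrier, was at 7455 and 4665 CPM against 7088 and 7114, and STING ECKO 2 alone was low.

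Neuropilin partners had 0 of 9 tested genes past the test, with 6 below 0 and a median of -0.53. Sema3c, a class 3 semaphorin, had 48 and 1 reads for STING ECKO against 337 and 112 for WT. Plxna2, a plexin that signals for semaphorins, was at 73.9 and 58.8 CPM against 143 and 63.7, and WT 3 alone stood high.

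Genes that respond to VEGF had 0 of 17 tested genes past the test, with 9 above 0, 8 below 0 and a median of 0.02. Cd34, a surface mucin of capillaries, was at 1654 and 1458 CPM for STING ECKO against 1754 and 1790 for WT. Pdgfb, which tip cells secrete to recruit pericytes, was at 158 and 239 CPM against 165 and 162, and STING ECKO 2 alone was high. Of the list of other VEGF ligands, Pgf was the 1 gene of 4 tested, and it did not pass.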

How the data were processed

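RNA of brain endothelial cells was sequenced in 4 libraries. Tools listed per the submitters' processing notes are TopHat2 2.0.12, HTSeq 0.6.0 and Bowtie2 2.2.3, with the build mm9. The sources used here give neither strand setting nor annotation release. Positions of the members in the tables were identical to GENCODE vM21 (GRCm38), as were 89.7% of matched genes. Counts, per the file headers, are whole reads of a gene, and each test here started from them. The deposited normalized columns are CPM, with 0 reads written by the authors as 0.5 read, and were not used. The authors' deposited fold change is the ratio of those CPM values, the deposited log2 column its log2, and the authors' p-values compare 1 library with 1 library. The 2 tables were merged by gene identifier (14100 genes in both), and 20 spreadsheet-altered symbols were restored. All count columns were assigned to a sample.

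Genotypes were compared with edgeR 4.0.16 in R 4.3.3: genes were kept by filterByExpr (minimum count 10), libraries were scaled by TMM, and quasi-likelihood p-values were adjusted by Benjamini-Hochberg over 13365 genes (threshold 0.05). Intervals of fold changes use the moderated spread. Lengths are unions of GENCODE exons; likeness used log2 of CPM plus 0.5. Counting intervals and the floor of 3 reads cover counting error only. Since no label names separate animals, the p-values reflect the spread between these 4 samples alone, and that spread may be technical in part. STING ECKO 1 and 2 had 3623 and 0 reads of Ddx3y and 0 and 876 of Xist, so they came from different embryos or pools. Between WT 3 and 5, both without Ddx3y reads, the spread may be technical alone.

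The members, gene lists and naming rule (all members; the 2 genes per list with the smallest p and a mean of at least 5 CPM; Pgf and Vegfd; Tmem173; the nearest gene per member) were chosen with earlier results of these data known. Promoter motifs were chosen after the values were seen. DESeq2 1.42.0, limma-voom (limma 3.58.1), the omission of each library, other filters or scalings, and the deposited table as a block were the alternatives; scaling to endothelial markers was added after seeing the data.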

Additional observations from a re-analysis of the deposited data

Results flagged for a closer look

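Vegfd, the other ligand of Flt4 beside VEGF-C (ENSMUSG00000031380, chromosome X, 164373378 to 164402650, plus strand), was analysed in 1 table only and so stayed outside the genotype test. It had 218 reads (11.9 CPM) in STING ECKO 1 and 0 in WT 3, at least 85.7-fold higher over a floor of 3 reads per library. It drew attention as a signal outside the comparison with 0 reads in the WT library beside it. The floor covers counting error of the 0 reads alone and leaves out that of the 218 reads. The ratio compares 2 libraries, not the genotypes. The signal was seen in STING ECKO 1 alone, and no value for STING ECKO 2 bears it out. STING ECKO 1 and WT 3 also differed in sex-linked reads, with 3623 and 0 of Ddx3y and 0 and 2347 of Xist. The part of sex in the reads of this X-linked gene was not tested. The authors' deposited table marked it as higher between STING ECKO 1 and WT 3, where it marked 21.5% of genes as higher.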

How the results depend on the processing

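Of 77 recomputed fold changes of the members (7 genes under 11 alternatives), 68 kept their direction, 9 turned and 0 passed the threshold. Kdr, Flt1 and Vegfb kept their direction under all 11, from 0.11 to 0.40, 0.09 to 0.49 and -4.57 to -3.60 on the log2 scale. With 1 library left out, the values ran from -2.40 to 0.27 for Vegfc (0.27 without STING ECKO 2), -0.27 to 0.39 for Flt4 (-0.27 without STING ECKO 2, -0.06 without WT 5), -0.20 to 0.17 for Nrp1 (0.15 without STING ECKO 2, 0.17 without WT 5) and -0.63 to 1.05 for Nrp2 (0.05 without STING ECKO 1, 1.05 without WT 5). Nrp2 was also turned by limma-voom (0.22) and by the deposited table as a block (0.20). Of 154 values for 14 other named genes, 148 kept their direction and 6 turned, each with 1 library left out. These ran from -0.045 (without STING ECKO 2) to 0.55 for Pdgfb, -0.60 to 0.076 (without STING ECKO 2) for Slc2a1, -0.13 (without WT 5) to 1.90 for Pgf, -1.10 to 0.061 (without WT 3) for Plxna2, and -0.55 (without STING ECKO 2) to 0.63 for Tmem173, which was -0.06 without WT 3. The cause was not tested. DESeq2 called 87 genes over all tested genes, where the other 10 alternatives and the edgeR quasi-likelihood test called 0; 0 members and 0 pathway genes were called under any of the 11, also with each library left out (range 0 to 0). The count of members whose genotypes did not overlap was 3 under the other scalings and 2 after scaling to the endothelial marker sum. That scaling was chosen after seeing the data, and most of the sum is Cldn5. With the longest transcript as the length, 3 genes changed place. The genotypes share no replicate number in the labels; pairing them by deposited table, as a block, called 0 genes and turned the sign of Nrp2 alone among the members. Ratios with Vegfa were not run. A library left out leaves its genotype with 1 sample, assumed to vary like the other genotype. Depth limits Vegfb most, with 3 to 92 reads a library.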
